A study of Mus musculus with 10 samples.

Results

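The 9 complement genes described here are C1qa, C1qb, C1qc, C3, C4b, C3ar1, C5ar1, Cfp and Cfb, complement genes made by macrophages and neutrophils, and they were found by matching gene symbols to the 55421 gene identifiers of the count table. All 9 had counts in every library and passed the filter on low counts in every comparison. The data were RNA sequencing counts from 10 libraries of mouse myeloid cells, taken on day 15 after subcutaneous implantation of MC17-51 fibrosarcoma cells, so every group came from tumor-bearing mice. Spleen myeloid-derived suppressor cells (MDSC), isolated with magnetic beads as GR-1+ cells and described in the methods as PMN-MDSC high in GR-1, positive for Ly6G and negative for Ly6C, gave 2 libraries per genotype. Tumor-associated macrophages (TAM), sorted from the tumors as CD11b+F4/80+ cells and gated in the methods as negative for Ly6G, gave 3 libraries per genotype.

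Shp2f/f mice carried floxed alleles of Ptpn11, the gene for the phosphatase SHP-2, and served as controls. Shp2f/fLysMcre mice carried the same floxed alleles and Cre recombinase driven by the lysozyme M (Lyz2) promoter, which is active in several kinds of myeloid cell. The deletion is therefore not particular to MDSC or TAM and need not be complete in either. An age for the mice of each library was not given in the labels, and neither was the number of mice behind a library. The study's methods state a range of weeks of age at implantation for its tumor experiments as a whole. TAM and MDSC were taken from shared animals, but no label links a TAM library to an MDSC library. Nothing in the labels says that replicates came from separate mice, so p-values measure the spread between libraries, which may be technical. Spleen against tumor, beads against sorting, and MDSC against TAM cannot be told apart.

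Complement is a cascade of plasma proteins that tags microbes, immune complexes and dying cells for removal. C1q, a hexamer built of A, B and C chains, starts the classical pathway, C4 and C3 are cleaved and deposited in turn, and factor B and properdin drive the amplification loop of the alternative pathway. The released fragments C3a and C5a act on myeloid cells through the receptors C3aR1 and C5aR1. Most plasma complement comes from the liver, but macrophages are a main source of C1q, and neutrophils store properdin in their granules. Tissue macrophages, tumor macrophages included, make C1q and other components locally.

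All 9 genes lie on the minus strand of GRCm38. C1qa (chr4:136895917-136898803), C1qc (chr4:136889804-136893065) and C1qb (chr4:136880129-136886187) are neighbors on chromosome 4, and C4b (chr17:34728380-34743882), Cfb (chr17:34856374-34862518) and C3 (chr17:57203970-57228136) are on chromosome 17. C3ar1 (chr6:122847138-122856161), C5ar1 (chr7:16246743-16259540) and Cfp (chrX:20925454-20931555) lie on chromosomes of their own. C4b has a near-identical paralog, C4a, so reads could be split between them and the C4b counts are uncertain. The exons of Cfb share 2246 of 2825 bases with those of the overlapping gene Gm20547 on the same strand, which had 0 counts in all 10 libraries, so the level of Cfb is uncertain as well.

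Promoter sequences in the RefSeq table (GRCm38.p6) were matched for 6 of the 9 genes. The 250 bases before the RefSeq transcription start are shown for 1 gene of each role, C1qb for C1q, C3 for the components and C3ar1 for the receptors. Longer transcripts of C1qc and C5ar1 in the GENCODE annotation begin well inside their windows, so those are described but not shown. C3ar1 is shown although its GENCODE gene also begins a few bases inside its window, at chr6:122856161. Capitals mark the core GAGGAA bound by PU.1, the master regulator of myeloid genes, and the MAF half-site TGCTGA, on either strand.
C1qb (chr4:136886201-136886450, minus strand): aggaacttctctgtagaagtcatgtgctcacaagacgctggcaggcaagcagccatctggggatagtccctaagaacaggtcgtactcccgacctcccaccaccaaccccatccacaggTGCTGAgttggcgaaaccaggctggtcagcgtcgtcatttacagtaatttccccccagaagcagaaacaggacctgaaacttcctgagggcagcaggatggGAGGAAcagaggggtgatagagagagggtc
C3 (chr17:57228137-57228386, minus strand): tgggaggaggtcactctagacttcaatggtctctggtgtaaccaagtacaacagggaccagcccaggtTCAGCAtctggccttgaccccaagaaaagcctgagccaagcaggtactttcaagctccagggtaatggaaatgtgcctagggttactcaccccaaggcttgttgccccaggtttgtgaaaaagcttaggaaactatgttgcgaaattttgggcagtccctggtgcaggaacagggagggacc
C3ar1 (chr6:122856158-122856407, minus strand): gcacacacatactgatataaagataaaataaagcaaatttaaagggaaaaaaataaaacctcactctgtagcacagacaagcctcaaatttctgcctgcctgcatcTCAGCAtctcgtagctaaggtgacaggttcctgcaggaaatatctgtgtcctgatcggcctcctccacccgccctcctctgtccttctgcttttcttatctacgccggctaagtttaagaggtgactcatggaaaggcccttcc
GAGGAA was present in the windows of C1qb, 30 to 25 bases before the start, and C1qc, on the opposite strand 193 to 188 bases before it. The same core was found in 23.3% of 32851 mouse promoter windows of this length. TGCTGA was present in the windows of C1qb (131 to 126 bases before the start), C3 (182 to 177), C3ar1 (144 to 139) and C5ar1 (17 to 12), and in 16.1% of all windows. The AP-1 motif TGANTCA lay 22 to 16 bases before the start of C3ar1, against 6.75% of all windows holding it. The C/EBP motif TTGCNNAA lay 45 to 38 bases before the start of C3 (9.56% of windows), the IRF motif GAAANNGAA lay 66 to 58 bases before that of C5ar1 on the opposite strand (7.13%), and TATAAA lay 235 to 230 bases before that of C3ar1 (12.4%). None of these letters, nor the STAT motif TTCNNNGAA (7.02%) or the E-box CACGTG (6.02%), were in the Cfp window. These matches describe letters and not binding.

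Library totals ranged from 28844660 to 38222998 counts. Levels are CPM, counts made relative to the size of the library, after scaling by the trimmed mean of M-values over all 10 libraries, and levels of different genes are compared only as CPM per kilobase of exon. A gene was called at a Benjamini-Hochberg adjusted p under 0.05 in edgeR's quasi-likelihood test over all tested genes. Ptpn11 was at 120.8 to 125.1 CPM in Shp2f/f TAM and 50.86 to 54.15 CPM in Shp2f/fLysMcre TAM (log2 fold change -1.24, SE 0.0386, adjusted p = 2.96e-09), and at 99.17 to 113.1 and 79.7 to 94.74 CPM in MDSC, where it was not called (-0.29, adjusted p = 0.361). The MDSC libraries held neutrophil transcripts (Ly6g 8.913 to 33.18 CPM, S100a8 3259 to 9032 CPM) together with Csf1r at 1030 to 1441 CPM, a receptor of monocytes and macrophages. Summed monocyte markers were at 7775 to 10530 CPM in the MDSC libraries and 1657 to 2153 CPM in the TAM libraries. The MDSC levels are therefore not those of neutrophils alone. TAM libraries held the macrophage marker Adgre1 at 635.9 to 996 CPM and Ly6g at no more than 0.2866 CPM. The sort selected for the protein of Adgre1 and against Ly6G, so these levels are no separate check of purity. Replicate 2 of Shp2f/fLysMcre MDSC stood apart, with summed fibroblast and stroma markers at 540.6 CPM against 11.29 to 29.28 CPM in the other MDSC libraries. In Shp2f/f TAM the summed pancreatic islet markers ranged from 845.5 to 6571 CPM, against 6.137 to 80.84 CPM in Shp2f/fLysMcre TAM.

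With SHP-2 intact, TAM expressed far more C1q and C3ar1 than MDSC. C1qa was 40.6-fold, C1qc 21.9-fold, C1qb 17.8-fold and C3ar1 53.7-fold higher in TAM, and C3 was the exception, at 1.36-fold lower in TAM. In Shp2f/fLysMcre mice all 9 genes were called higher in TAM, by 1.16- to 1.67-fold, where 23.9% of all tested genes were called higher. None was called in MDSC, where only 4.28% of all tested genes were called. The fall of Ptpn11 itself was smaller in MDSC and not called. The genotype effect on Ptpn11 was called lower in TAM than in MDSC (-0.92, adjusted p = 0.00045, edgeR over all 10 libraries). The genotypes therefore did not differ equally in Ptpn11 transcript in the 2 cell types. RNA counts do not give the level of SHP-2 protein. In 5 of the 9, C1qb, C4b, C3ar1, C5ar1 and Cfp, the genotype effect in TAM was itself called higher than that in MDSC. The same was called for 12.2% of all tested genes.

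**Figure D1:**
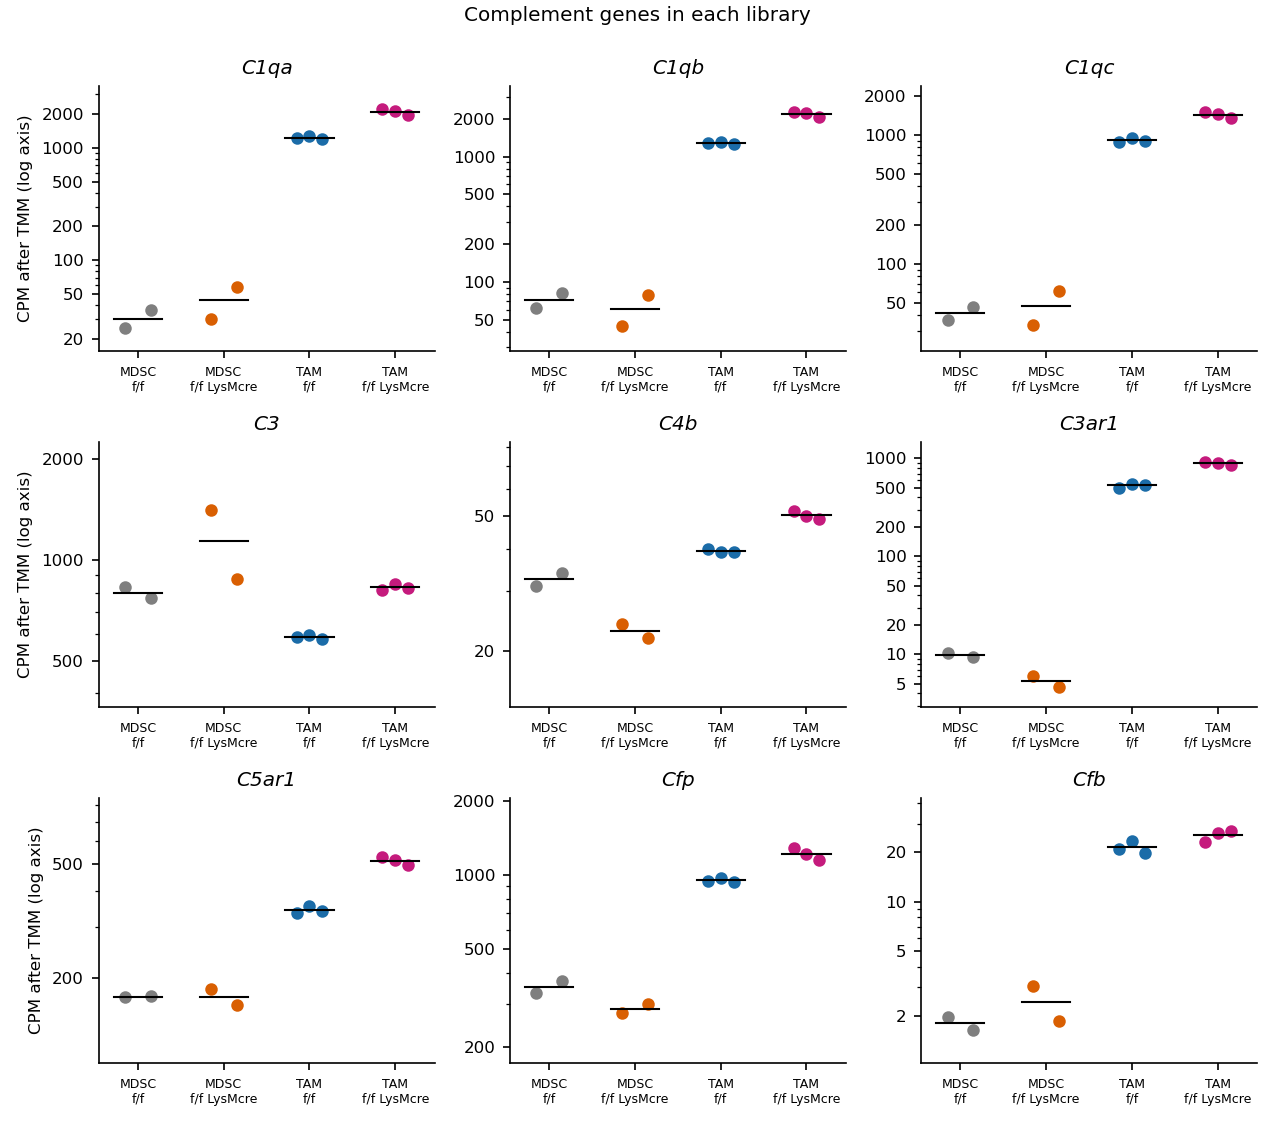
Level of each of the 9 complement genes in every library, in CPM after TMM scaling on a log axis (the axis range differs between genes). Points are libraries and black lines are group means, and the 3 Shp2f/fLysMcre TAM libraries lie above the 3 Shp2f/f TAM libraries for every gene but Cfb, where the genotypes overlap.

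C1q was among the most abundant transcripts of TAM. C1qa, the A chain, was at 1217, 1280 and 1208 CPM in Shp2f/f TAM and at 2220, 2111 and 1971 CPM in Shp2f/fLysMcre TAM. C1qb, the B chain, was at 1274, 1312 and 1252 CPM and then 2286, 2209 and 2064 CPM. C1qc, the C chain, was at 882.3, 938.4 and 896 CPM and then 1490, 1435 and 1349 CPM. For each chain the lowest Shp2f/fLysMcre library stood well above the highest Shp2f/f library, and the genotypes did not overlap. The log2 fold change was 0.73 for C1qa (SE 0.0416, adjusted p = 1.61e-07), 0.74 for C1qb (SE 0.0376, adjusted p = 7.85e-08) and 0.62 for C1qc (SE 0.0399, adjusted p = 3.86e-07), in 3 against 3 libraries.

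Per kilobase of exon, C1qa rose from rank 15 to rank 10 and C1qb from rank 17 to rank 11 among 21976 protein-coding genes of TAM. Reads of the 3 chains together took 0.342% to 0.354% of all counts in Shp2f/f TAM and 0.508% to 0.55% in Shp2f/fLysMcre TAM. In MDSC they took 0.0111% to 0.0215%.

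In MDSC the C1q chains were low and varied between replicates. C1qa was at 24.84 and 35.88 CPM in Shp2f/f MDSC and at 30.01 and 58.16 CPM in Shp2f/fLysMcre MDSC. C1qb was at 61.97 and 81.43 CPM and then 44.72 and 78 CPM, and C1qc was at 36.43 and 46.04 CPM and then 33.48 and 61.01 CPM. The genotypes overlapped for every chain, and within each genotype replicate 2 was the higher for all 3 chains. The log2 fold changes were 0.53 for C1qa (95% interval -0.314 to 1.37, adjusted p = 0.486), -0.23 for C1qb (-0.932 to 0.464, adjusted p = 0.737) and 0.19 for C1qc (-0.536 to 0.91, adjusted p = 0.806). No genotype difference was called in this fit of 2 against 2 libraries, and the intervals include the effects seen in TAM for C1qa and C1qc.

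Which library was left out decided what C1q showed in MDSC. Without replicate 2 of Shp2f/fLysMcre MDSC, C1qb was called lower (-0.68, adjusted p = 0.000316), and C1qa was at -0.01 (adjusted p = 0.969) and C1qc at -0.30 (adjusted p = 0.126). Without replicate 1, C1qa was called higher (0.89, adjusted p = 0.0264). In both fits the remaining library was assumed to vary like the Shp2f/f pair.

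C1qa and C1qc were highest in replicate 2 of Shp2f/fLysMcre MDSC, and C1qb in replicate 2 of Shp2f/f MDSC. Replicate 2 of Shp2f/fLysMcre MDSC also had the highest level of the 4 libraries for 8 of the 10 markers of splenic red pulp macrophages, the iron-recycling macrophages of the spleen, against 31.3% of all 14806 tested genes. The same held for 8 of 8 tested stroma markers and 7 of 8 erythroid markers, but for 2 of 10 general macrophage markers. Cd5l, a protein secreted by such macrophages, was at 29.95 and 39.92 CPM in Shp2f/f MDSC and 44.74 and 78.85 CPM in Shp2f/fLysMcre MDSC, and Vcam1, an adhesion molecule, was at 33.67 and 41.57 CPM and then 52.84 and 82.93 CPM. Spic, the transcription factor of red pulp macrophages, was at 14.51 and 17.19 CPM and then 14.41 and 23.09 CPM. Other markers of the list followed other orders. Relative to the Shp2f/f mean, the iron exporter Slc40a1 was at 2.03 and 2.06 in the Shp2f/fLysMcre libraries, Treml4 was at 0.88 and 0.832, and Clec4n was highest in replicate 2 of Shp2f/f. The 10 red pulp markers summed to 564.6 to 636.3 CPM in Shp2f/f MDSC and 672.8 to 882.6 CPM in Shp2f/fLysMcre MDSC, with none at 0, and 1 of the 10 was called higher between genotypes. Fcna, a macrophage ficolin singled out after its values were seen, was at 16.49, 22.67, 19.01 and 35.89 CPM in the same order of libraries. An isolation by GR-1 and Ly6G is meant to leave out such macrophages, and their part in these C1q levels was not tested. In bulk libraries fewer cells of a type and less RNA per cell cannot be told apart.

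**Figure D2:**
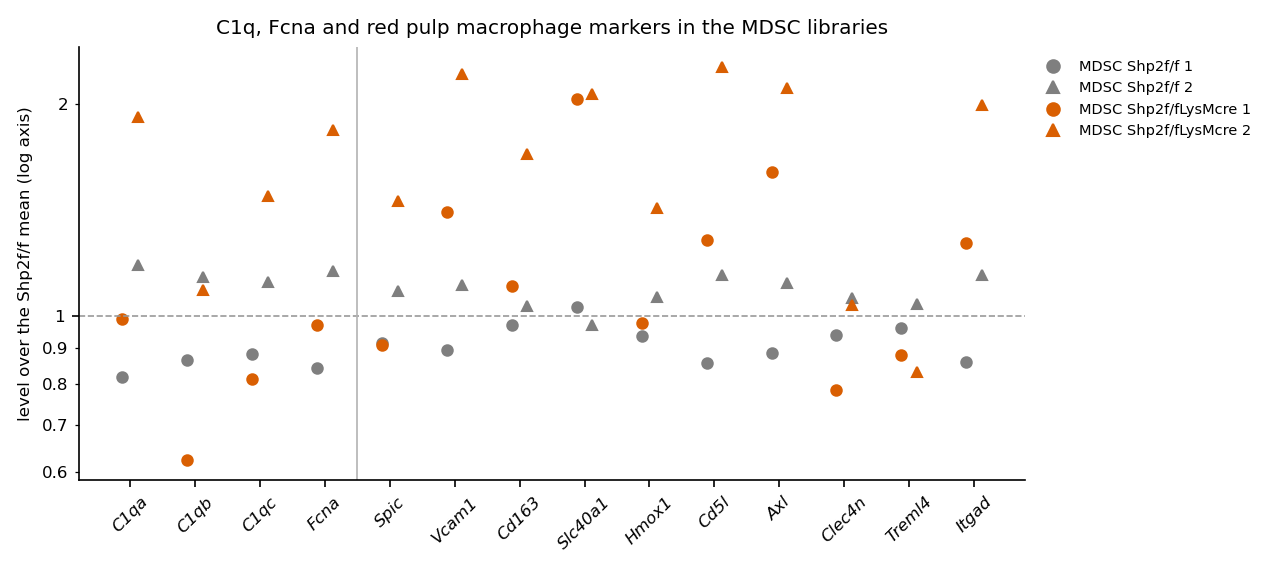
Levels of C1qa, C1qb, C1qc, Fcna and the 10 red pulp macrophage markers in the 4 MDSC libraries, each divided by the mean of the 2 Shp2f/f libraries, on a log axis (circles are replicate 1, triangles replicate 2, gray Shp2f/f, orange Shp2f/fLysMcre). The orange triangle is the highest point for C1qa, C1qc, Fcna and 8 of the 10 markers.

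The balance of the chains also differed between the cell types. As shares of C1q level per kilobase, TAM held 41.8% to 42.6% C1qa, 41.3% to 42.3% C1qb and 15.4% to 16.7% C1qc across all 6 libraries. MDSC held 24%, 25.9%, 33.1% and 35.1% C1qa and 57.1%, 56.2%, 47.1% and 45% C1qb, with the Shp2f/f libraries first. Every MDSC library thus had a larger C1qb share and a smaller C1qa share than any TAM library, and in both of these shares the Shp2f/fLysMcre pair lay nearer to TAM. The C1qc share was 18.9%, 17.9%, 19.9% and 19.8% in MDSC, and there the Shp2f/fLysMcre pair lay farther from TAM. Over genotypes, the C1qb share was 51.4% ± 6.19 in MDSC (SD, n = 4) and 41.9% ± 0.394 in TAM (SD, n = 6), a difference of 9.5 percentage points. A two-sided exact permutation test gave p = 0.00952 for each of the 3 shares, also after Benjamini-Hochberg adjustment. This is the smallest p these numbers allow. Without overlap between the cell types it was fixed in advance, so it adds nothing to the ranges above. The shares sum to a fixed total and are not separate results. The test also treated libraries of both genotypes as exchangeable. Within MDSC, 2 against 2 libraries cannot reach significance in a permutation test. Exon length was counted over all annotated transcripts of a gene, so the size of a chain's share depends on that choice.

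**Figure D3:**
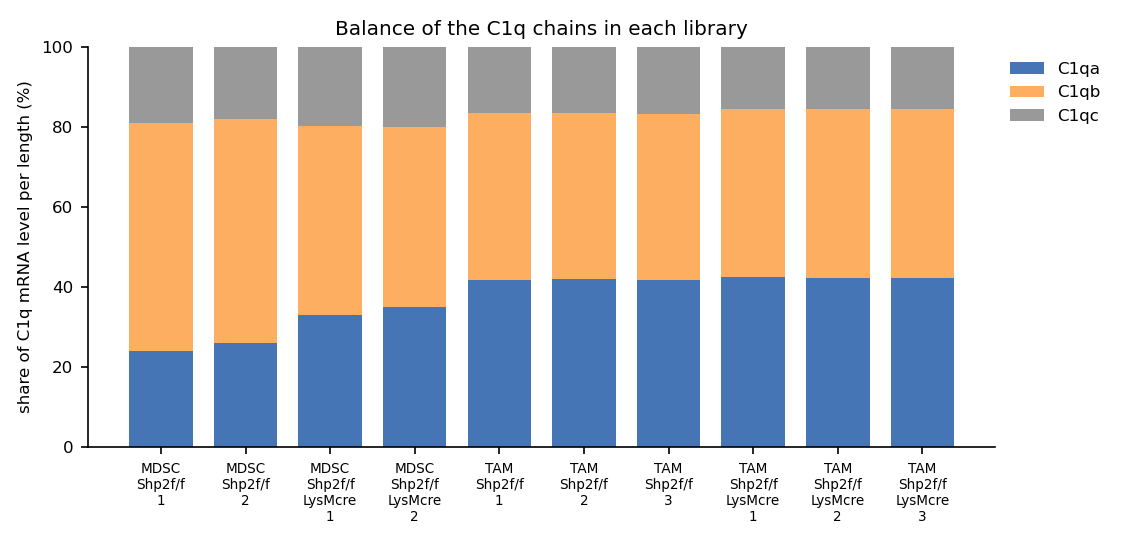
Share of each C1q chain in the summed C1q level per kilobase of exon (percent), one bar per library. The C1qb share (orange) is 45% to 57.1% in the 4 MDSC libraries and 41.3% to 42.3% in the 6 TAM libraries.

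C3, the central component cleaved by both pathways, was abundant in all 4 groups. It was at 828.6 and 770.2 CPM in Shp2f/f MDSC, 1409 and 878 CPM in Shp2f/fLysMcre MDSC, 588.9, 596 and 581 CPM in Shp2f/f TAM, and 815.4, 849.8 and 826 CPM in Shp2f/fLysMcre TAM. Both Shp2f/fLysMcre groups lay above their controls without overlap, with replicate 1 of Shp2f/fLysMcre MDSC far above the rest. In TAM the log2 fold change was 0.46 (SE 0.0336, adjusted p = 9.23e-07). In MDSC it was 0.51 with a wide error (SE 0.242, adjusted p = 0.337). Without replicate 2 of Shp2f/fLysMcre MDSC it was 0.82, with only the high replicate 1 left in that group.

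C4b encodes C4, which follows C1 in the classical pathway. It was at 31.11 and 34.1 CPM in Shp2f/f MDSC and 24.1 and 21.89 CPM in Shp2f/fLysMcre MDSC. In TAM it was at 39.9, 39.29 and 39.28 CPM and then 51.6, 49.94 and 49.13 CPM. The genotypes did not overlap in either cell type, and they lay in opposite orders. The change in TAM was called (log2 fold change 0.31, SE 0.0417, adjusted p = 9.08e-05). That in MDSC was -0.51 (SE 0.122, unadjusted p = 0.00697, adjusted p = 0.0936) and was not called by edgeR, while DESeq2 gave an adjusted p of 0.0467. Leaving out replicate 1 or replicate 2 of Shp2f/fLysMcre MDSC gave -0.62 or -0.43, with only the other library left in that group.

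Cfb and Cfp carry the alternative pathway. Cfb, factor B, was scarce in MDSC, at 1.974 and 1.644 CPM in Shp2f/f and 3.033 and 1.853 CPM in Shp2f/fLysMcre libraries, which rest on 57 to 112 counts per library. In TAM it was at 21.07, 23.58 and 19.76 CPM and then 23.17, 26.33 and 26.86 CPM. The genotypes overlapped in both cell types. The change in TAM, 0.21 (SE 0.0736, adjusted p = 0.0353), was the smallest of the 9 and lost its call without replicate 1 or 3 of Shp2f/f TAM or replicate 2 or 3 of Shp2f/fLysMcre TAM (adjusted p = 0.104 to 0.132), and with scaling to total counts (0.11, adjusted p = 0.251). In MDSC it was 0.43 (95% interval -0.398 to 1.25, adjusted p = 0.579). Without replicate 2 of Shp2f/fLysMcre MDSC it was 0.75, with only the other library left in that group.

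Cfp encodes properdin, which stabilizes the alternative pathway convertase. It was at 331.5 and 372.6 CPM in Shp2f/f MDSC and 275.7 and 298.6 CPM in Shp2f/fLysMcre MDSC. In TAM it was at 946.9, 971.6 and 932 CPM and then 1282, 1211 and 1146 CPM. As for C4b, no library overlapped with the other genotype, and the order was lower in MDSC and higher in TAM. The log2 fold change was 0.32 in TAM (SE 0.0408, adjusted p = 6.84e-05) and -0.30 in MDSC (SE 0.123, adjusted p = 0.267). Without replicate 2 of Shp2f/fLysMcre MDSC it was -0.35 there, with only the other library left in that group. The study itself names Cfp among genes raised in these TAM libraries, so its direction is not independent evidence. Cfp is X-linked, and transcripts of the sex chromosomes differed between the groups. Xist, expressed from the inactive X, was at 4.821 to 18.13 CPM in Shp2f/f TAM and 208.9 to 371.4 CPM in Shp2f/fLysMcre TAM, and at 0.02885 to 0.02902 and 119.2 to 132 CPM in MDSC. Sex composition and genotype cannot be told apart in these groups, for Cfp or for any other gene.

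The anaphylatoxin receptors rose in TAM together with C1q. C3ar1, the C3a receptor, was at 504.8, 548.2 and 536.9 CPM in Shp2f/f TAM and 919.8, 896.3 and 864.5 CPM in Shp2f/fLysMcre TAM. C5ar1, the C5a receptor, was at 337.2, 356.9 and 342.6 CPM and then 528.7, 514.1 and 493.1 CPM. The genotypes were apart for both. The log2 fold change was 0.72 for C3ar1 (SE 0.0404, adjusted p = 1.52e-07) and 0.53 for C5ar1 (SE 0.0393, adjusted p = 1.03e-06).

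In MDSC the receptors parted. C3ar1 was low, at 10.3 and 9.375 CPM in Shp2f/f and 6.013 and 4.609 CPM in Shp2f/fLysMcre libraries, and the genotypes did not overlap. C5ar1 was at 171.5 and 172.3 CPM and then 182.4 and 160.9 CPM, and the genotypes overlapped. C3ar1 had a log2 fold change of -0.90 (SE 0.2, unadjusted p = 0.0052, adjusted p = 0.0816) and was not called by edgeR. DESeq2 called it (adjusted p = 0.0184). Without replicate 1 or replicate 2 of Shp2f/fLysMcre MDSC the edgeR change was -1.14 or -0.71. Each of these fits rests on the other library of that group alone, with the spread taken from the Shp2f/f pair. They are therefore no separate support for a lower level. C5ar1 was at -0.01 (95% interval -0.315 to 0.299, adjusted p = 0.984), an interval that leaves out the C5ar1 change of 0.53 in TAM.

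Per kilobase, C3ar1 was at 0.894, 0.917 and 0.935 times the level of C5ar1 in Shp2f/f TAM and at 1.04, 1.04 and 1.05 times in Shp2f/fLysMcre TAM. The ratio was higher in all 3 Shp2f/fLysMcre TAM libraries than in the Shp2f/f ones, and its place around 1 depends on the exon lengths used. In MDSC the ratio was 0.0359 and 0.0325, then 0.0197 and 0.0171.

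**Figure D4:**
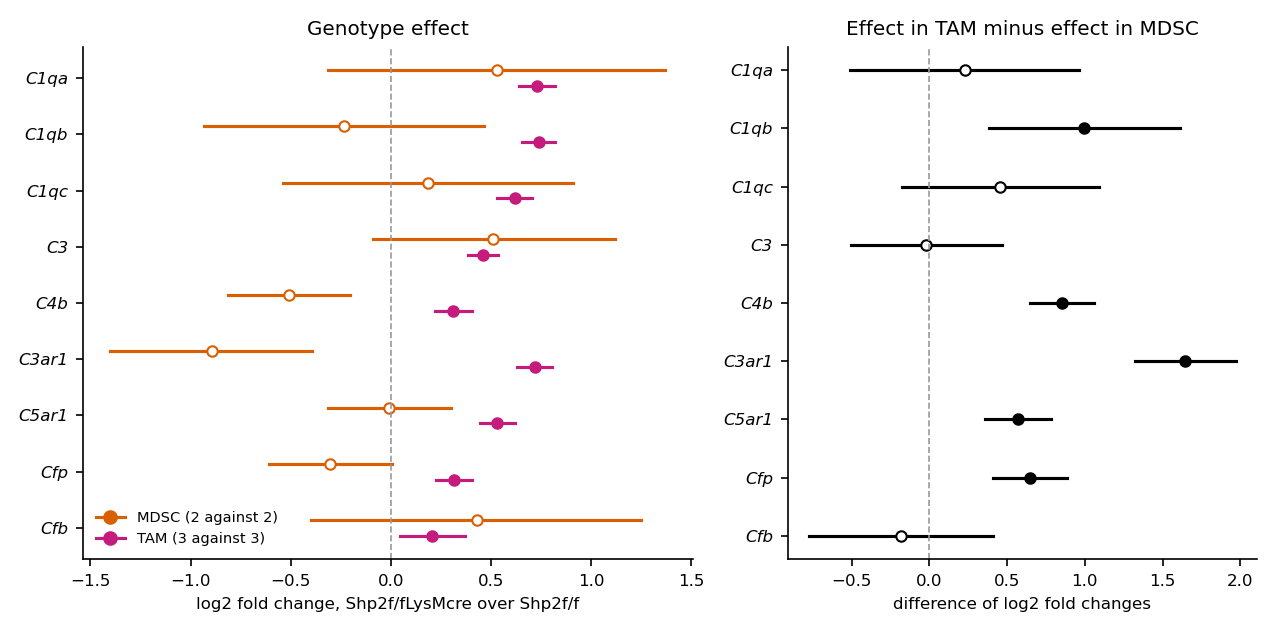
Left, log2 fold change of Shp2f/fLysMcre over Shp2f/f for each gene in MDSC (orange, 2 against 2 libraries) and TAM (pink, 3 against 3), and right, the TAM effect minus the MDSC effect. Bars are 95% intervals and filled points passed an adjusted p under 0.05, which all 9 did in TAM, none did in MDSC and 5 did for the difference. Of all tested genes, 50.2%, 4.28% and 24.9% passed in the same order.

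In TAM, all 9 genes were thus called higher, where 50.2% of the 14446 tested genes were called, 23.9% higher and 26.3% lower. The genotypes were apart for 8 of the 9, as for 57.9% of tested genes. The median log2 fold change of the 9 was 0.53, against -0.01 over all tested genes. Scaling to total counts moved the median of all genes to -0.11 and left 8 of the 9 called higher. Macrophage markers rose in the same libraries: 9 of 10 were called higher and Trem2 lower, their median log2 fold change was 0.44, and their summed level was 11450 to 12060 CPM in Shp2f/f TAM and 17910 to 19830 CPM in Shp2f/fLysMcre TAM, with none at 0. Of 9 tested red pulp markers, 8 were called higher in TAM and 1 lower (median 1.12). Markers of other cells moved as well. Of 8 T and NK cell markers 7 were called lower and 1 higher (median -1.21). Their summed level was 26.29 to 27.32 CPM in Shp2f/f TAM and 57.87 to 58.49 CPM in Shp2f/fLysMcre TAM. The rise of this sum came from the 1 marker called higher. Of 9 tested neutrophil markers 5 were called higher and 1 lower, and their sum went from 4272 to 4567 CPM to 2427 to 2556 CPM, most of it Mmp9 (3977 to 4256 CPM, then 1945 to 2050 CPM). All 6 islet markers were called lower (median -6.42). The part of cell content in the rise of the complement genes was not tested.

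In MDSC, 0 of the 9 were called by edgeR, where 4.28% of the 14806 tested genes were called, 3.76% higher and 0.52% lower. Of the 9, C4b and C3ar1 had an unadjusted p under 0.05, as had 2859 of all tested genes, and DESeq2 called both of them lower. The genotypes were apart for 4 of the 9, C3, C4b, C3ar1 and Cfp, as for 48.9% of tested genes. The median log2 fold change of the 9 was -0.01, as over all genes (-0.01). A fit with a library left out takes its spread from the other pair. Its calls therefore depended on which pair was cut, for all tested genes as for the members. Without replicate 2 of Shp2f/fLysMcre MDSC, 6 of the 9 were called, C1qb, C4b, C3ar1 and Cfp lower and C3 and Cfb higher, where 18% of all tested genes were called. Without replicate 1, 3 were called, C1qa higher and C4b and C3ar1 lower, where 27.2% of all tested genes were called, a share near that of the members. Neutrophil markers summed to 9035 to 9230 CPM in Shp2f/f MDSC and 22270 to 26470 CPM in Shp2f/fLysMcre MDSC (5 of 10 called, all higher), and macrophage markers summed to 3516 to 3699 and 2740 to 2928 CPM (2 of 10 called, both lower). Monocyte markers summed to 8765 to 8907 and 7775 to 10530 CPM (0 of 8 called). Their part in the MDSC values was not tested.

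The difference between the cell types was tested as an interaction over all 10 libraries. It was called, with the TAM effect higher, for C3ar1 (difference of log2 fold changes 1.65, SE 0.143, adjusted p = 4.81e-05), C1qb (0.998, SE 0.274, adjusted p = 0.0259), C4b (0.85, SE 0.0918, adjusted p = 0.000168), Cfp (0.65, SE 0.106, adjusted p = 0.00189) and C5ar1 (0.57, SE 0.0947, adjusted p = 0.00209). These 5 of 9 stand beside 24.9% of 16581 tested genes, 12.2% higher and 12.7% lower. The difference was not called for C3 (-0.02, 95% interval -0.503 to 0.464), C1qa (0.23, -0.51 to 0.965), C1qc (0.46, -0.178 to 1.09) and Cfb (-0.18, -0.775 to 0.411).

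These interactions moved with single libraries for C1q and C3. C1qb lost its call without replicate 2 of Shp2f/f MDSC, without any one of the 3 Shp2f/f TAM libraries, or without replicate 1 or 2 of Shp2f/fLysMcre TAM (adjusted p = 0.0511 to 0.106), and with scaling to total counts (0.81, adjusted p = 0.0691). Without replicate 2 of Shp2f/fLysMcre MDSC, C1qa (0.78, adjusted p = 0.0106), C1qc (0.95, adjusted p = 0.000499) and C3 (-0.32, adjusted p = 0.0097) were also called. Without replicate 1 of that group, C3 was called in the other direction (0.37, adjusted p = 0.00379). C4b, C3ar1, C5ar1 and Cfp kept their calls whichever library was left out.

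In Shp2f/f mice the cell types were apart for all 9 genes, and all 9 were called, 8 higher in TAM and C3 lower. Over all 15659 tested genes, 78.8% were called, 40% higher and 38.8% lower, and 86% did not overlap. C3ar1 had the largest log2 difference of the 9 (5.75, SE 0.0753, adjusted p = 1.5e-11), then C1qa (5.34, SE 0.145, adjusted p = 8.79e-10), C1qc (4.45, SE 0.0996, adjusted p = 2.38e-10), C1qb (4.15, SE 0.11, adjusted p = 7.63e-10) and Cfb (3.56, SE 0.123, adjusted p = 4.45e-09). Cfp (1.43, SE 0.0581), C5ar1 (1.004, SE 0.0465) and C4b (0.27, SE 0.0569) differed less, and C3 was lower in TAM (-0.44, SE 0.0487, adjusted p = 2.03e-05). The median of the 9 was 3.56, against 0.01 over all genes.

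The order of the 9 genes per kilobase differed between the cell types. In Shp2f/f TAM it ran from C1qa (1187 ± 37.7 CPM per kilobase, SD, n = 3) and C1qb (1176 ± 27.8), through Cfp (547.3 ± 11.5), C1qc (469 ± 15.2), C5ar1 (134.5 ± 3.96), C3ar1 (123.1 ± 5.23) and C3 (114.5 ± 1.46), to Cfb (7.601 ± 0.687) and C4b (6.934 ± 0.0615). C1qa and C1qb differed by less than their spread. So did Cfb and C4b, though within each library Cfb was the higher. In Shp2f/f MDSC the order began with Cfp (202.8 ± 16.7, n = 2), C3 (155.4 ± 8.04), C5ar1 (66.89 ± 0.234) and C1qb (65.9 ± 12.7), the last pair not differing beyond their spread, and went on to C1qa (29.2 ± 7.51), C1qc (21.35 ± 3.52), C4b (5.725 ± 0.37), C3ar1 (2.286 ± 0.153) and Cfb (0.6403 ± 0.0825). C1qa exceeded C1qc by little more than its SD, but did so within each library. In Shp2f/fLysMcre TAM, C1qa (2020 ± 120) and C1qb (2010 ± 104) again led. C1qc (738 ± 36.7) and Cfp (698.8 ± 39.2) came next, then C3ar1 (207.6 ± 6.44) and C5ar1 (199.2 ± 6.95). Ranges over libraries overlapped between C1qc and Cfp and between C3ar1 and C5ar1. Within each library, C1qc exceeded Cfp and C3ar1 exceeded C5ar1. C3 (161.5 ± 3.42), Cfb (9.01 ± 0.707) and C4b (8.819 ± 0.221) followed. In Shp2f/fLysMcre MDSC, C3 (222.3 ± 73) and Cfp (165.4 ± 9.33) overlapped at the top. C5ar1 (66.79 ± 5.9), C1qb (56.39 ± 21.6), C1qa (42.39 ± 19.1) and C1qc (24.47 ± 10.1) followed, with each neighbor inside the spread over libraries. Within each library, however, C1qb exceeded C1qa and C1qa exceeded C1qc. C4b (4.038 ± 0.275), C3ar1 (1.234 ± 0.231) and Cfb (0.8649 ± 0.295) came last.

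The genes with the most similar profile over the 10 libraries were listed for each member by Pearson's r on log2 CPM among 8847 genes, 3 for each. Since the libraries fall into 2 cell types, these values are set largely by the gap between TAM and MDSC and are a description. C1qa was nearest to Il1a (0.9995), Areg (0.9994) and C1qc (0.9992), and C1qc to Il1a (0.9995), C1qa (0.9992) and Cmtm3 (0.9991). C1qb was nearest to Snx24 (0.9997), Pea15a (0.9994) and Slamf9 (0.9993), and C3ar1 to Gpnmb (0.9997), Slc7a8 (0.9997) and Rab7b (0.9995). C5ar1 was nearest to Nt5dc2 and Arrdc4 (0.9988 each) and Sdcbp (0.998), Cfp to Lgmn (0.9992), Ctsl (0.9991) and Ecm1 (0.9989), and Cfb to Siglec1 (0.9984), Tank and Ptgs2 (0.9981 each). C4b was nearest to Ehd4 (0.9952), P2ry6 (0.9935) and Slc7a7 (0.9913), and C3 had the least similar neighbors, Add1 (0.9806), Arid3b (0.9757) and Igf1r (0.9631).

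The other complement genes, 50 in all, did not shift as one group. In TAM 27 were tested and 17 called, 11 higher and 6 lower, against 50.2% of all tested genes. Their median log2 fold change was 0.09. Of 8 receptors and C1q-binding proteins tested, 5 were called higher and 2 lower. Itgam, the alpha chain of complement receptor 3, was at 355.2, 354.9 and 385.7 CPM in Shp2f/f TAM and 629.2, 579.3 and 582.1 CPM in Shp2f/fLysMcre TAM (0.67, SE 0.0494, adjusted p = 9.65e-07), and Itgb2, its beta chain, rose by less (0.31, adjusted p = 0.000101). Cd93, once described as a C1q receptor (0.26, adjusted p = 2e-04), and Lrp1, an uptake receptor that takes part in C1q-mediated clearance (0.21, adjusted p = 0.000904), were also higher.

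C1qbp, a mainly mitochondrial protein that binds C1q, was at 130, 139.6 and 135.2 CPM in Shp2f/f TAM and 96.35, 90.01 and 82.68 CPM in Shp2f/fLysMcre TAM. It was thus lower in all 3 libraries (-0.62, SE 0.052, adjusted p = 2.45e-06). Calr, calreticulin, was lower by a small amount (-0.15, adjusted p = 0.00375).

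Of the lectin and regulator genes of TAM, Colec12, a scavenger receptor with a collectin domain, was at 7.695, 7.869 and 6.788 CPM and then 14.93, 17.07 and 15.03 CPM, without overlap (1.04, SE 0.0796, adjusted p = 1.35e-06). Cd55, which speeds the decay of convertases on the cell surface, rose (0.80, SE 0.0671, adjusted p = 2.71e-06). Clu, clusterin, was at 16.01, 16.52 and 25.68 CPM and then 15.19, 13.63 and 14.33 CPM. The genotypes did not overlap, but the size of the change (-0.47, SE 0.157, adjusted p = 0.0272) rested on replicate 3 of Shp2f/f TAM, the library with the highest islet sum, and was -0.20 without it (adjusted p = 0.0368). Clu lost its call without replicate 2 (adjusted p = 0.0994) or replicate 3 (adjusted p = 0.0541) of Shp2f/fLysMcre TAM. Among 9 tested classical and lectin pathway genes 3 were called higher and 1 lower, among 3 soluble regulators 1 and 2, among 5 membrane regulators 1 and 1, and among 2 alternative and terminal pathway genes 1 and 0.

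**Figure D5:**
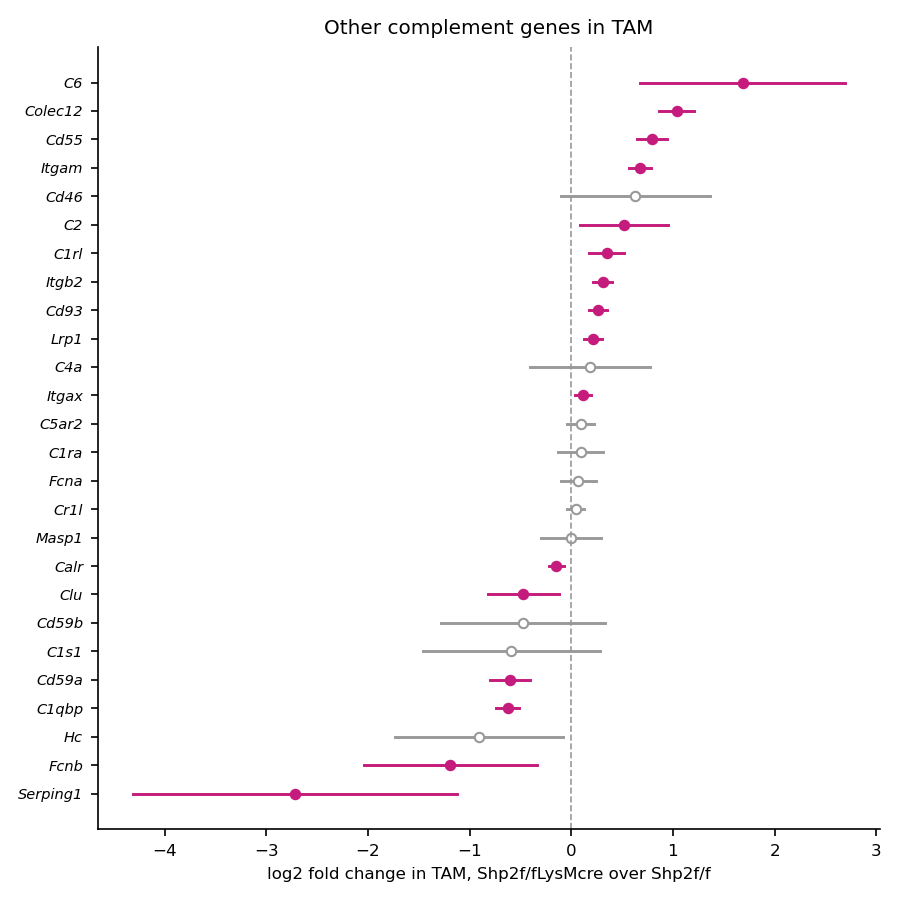
Log2 fold change of Shp2f/fLysMcre over Shp2f/f in TAM for 26 of the 27 tested complement genes outside the 9, with 95% intervals. Filled pink points passed an adjusted p under 0.05 (10 to the right of zero, 6 to the left), and gray open points did not.

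In MDSC 28 of these genes were tested and 2 called, and 4.28% of all tested genes were called in that comparison. Fcnb, a ficolin of neutrophil granules, was at 42.93 and 40.67 CPM in Shp2f/f MDSC and 145.9 and 89.94 CPM in Shp2f/fLysMcre MDSC, without overlap (1.49, SE 0.246, adjusted p = 0.0372). It lost its call without replicate 1 (adjusted p = 0.609) or replicate 2 (adjusted p = 0.716) of Shp2f/f MDSC, and it lay higher in the libraries with more neutrophil transcripts. Cr2, the complement receptor of B cells, was named after its values were seen, being under the 10 CPM asked of named genes. It was at 4.47 and 3.058 CPM and then 0.6229 and 0.4759 CPM (-2.78, SE 0.334, adjusted p = 0.0206) and was not called without either Shp2f/f MDSC library. In the same libraries, among 8 tested B cell markers 2 were called, both lower, their median was -1.19, none was at 0 and their sum was 54.29 to 66.41 CPM and then 54.68 to 54.9 CPM. The part of B cells and neutrophils in these changes was not tested.

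The genotype effect differed between TAM and MDSC for 13 of the 33 other genes tested, 7 with a higher and 6 with a lower effect in TAM, against 24.9% of all tested genes (12.2% higher and 12.7% lower). These values come from the same fit with a shared spread, so their precision is overstated too. Cd93 was at 506.7 and 457.7 CPM in Shp2f/f MDSC and 374.4 and 248.5 CPM in Shp2f/fLysMcre MDSC, which did not overlap, and the TAM effect exceeded that in MDSC by 0.93 (SE 0.196, adjusted p = 0.00747). C1rl, a protease related to C1r, differed by 1.004 (adjusted p = 0.00639), C5ar2, the second C5a receptor, by 0.60 (adjusted p = 0.0167), Itgam by 0.58 (adjusted p = 0.00221) and Calr by 0.39 (adjusted p = 0.0391). C1qbp (-0.67, adjusted p = 0.00222) and Fcnb (-2.65, adjusted p = 0.00593) had the lower effect in TAM. Fcnb was near the floor in TAM, at 15 to 28 counts per library in Shp2f/f and 4 to 12 in Shp2f/fLysMcre mice. It met the rule for named genes only through its level in MDSC. C5ar2 lost its call without replicate 1 of Shp2f/f MDSC (adjusted p = 0.1). Calr lost its call without either Shp2f/f MDSC library or any one TAM library (adjusted p = 0.0554 to 0.156).

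Between the cell types of Shp2f/f mice, 26 of 31 tested genes were called, 14 higher in TAM and 12 lower, a share near the 78.8% of all tested genes (40% higher and 38.8% lower). Fcnb (-6.15), C1rl (-2.83), C5ar2 (-1.12), Itgb2 (-0.97) and Cr1l (-0.26), a regulator of the C3 convertase, were lower in TAM. Clu (2.32), C1qbp (1.23), Lrp1 (0.66) and Cd93 (0.35) were higher. C5ar2 and C5ar1, receptors for the same ligand, were called in opposite directions. C5ar2 was at 29.49 and 24.92 CPM in Shp2f/f MDSC and 12.46, 12.79 and 12.4 CPM in Shp2f/f TAM, whereas C5ar1 was about as far apart the other way (1.004).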

How the data were processed

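RNA was sequenced from 4 MDSC and 6 TAM libraries. Per the labels, poly(A)-selected stranded libraries were read as short paired ends on an Illumina NextSeq 500. The authors trimmed reads with cutadapt 2.5, aligned them to GRCm38 with STAR 2.7.3a and counted reads per gene with featureCounts of Subread 1.6.2, as named in the submitters' processing notes and the study's methods. The deposited values used here were raw counts, not normalized. The strand setting and the treatment of reads with several matches were not given in the sources used here, so counts of paralogs and overlapping genes are uncertain. A table normalized by the authors was not used.

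GENCODE M21 supplied gene symbols, and 99.67% of the identifiers had one. Genes were kept by filterByExpr (minimum count 10), scaled by TMM and tested with edgeR 4.0.16 in R 4.3.3, genotype within each cell type, cell type within Shp2f/f, and the interaction over all 10 libraries, treated as independent. P-values were adjusted over all tested genes, with calls at 0.05. Alternatives used DESeq2 1.42.0, limma 3.58.1, other scalings, filters and left-out libraries. The paired check correlated deviations of same-numbered libraries from their group means. The 9 members and all gene lists were chosen with earlier results of these data known. Other complement genes were named if called with a mean of at least 10 CPM, at most the 10 largest changes per comparison. Some genes that met this rule or belong to the lists enter the counts but are not reported here by name.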

Additional observations from a re-analysis of the deposited data

Results flagged for a closer look

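The genotype effect differed between TAM and MDSC, by edgeR's interaction test, for 5 of the 9 complement genes, against 24.9% of all tested genes. That test shared a spread between cell types whose spreads differ, so it overstates the precision. The TAM effect minus the MDSC effect on the log2 scale was 1.646 for C3ar1, with every TAM library of Shp2f/fLysMcre mice above and both MDSC libraries below their controls. It was 0.8508 for C4b and 0.6468 for Cfp, which had the same opposite orders without overlap. It was 0.9975 for C1qb and 0.5693 for C5ar1, whose MDSC libraries overlapped between genotypes. Groups of 2 or 3 libraries were too small for a test of single deviating libraries.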

How the results depend on the processing

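Calls for the 9 genes in TAM (8 or 9 of 9) and between the cell types (9 of 9) held in every alternative run, other scalings, filters, DESeq2, the replicate block and each left-out library included. The MDSC comparison did not hold in this way. Of the 9 genes 0 were called there, against 2 with DESeq2, 4 with the replicate block (C1qa and C3 higher, C4b and C3ar1 lower), 3 in one fit of all 10 samples and 0 to 6 with one library left out. Of the other complement genes 2 were called, against 7 with DESeq2, 0 without a filter on low counts, 17 with the replicate block, 0 at an adjusted p under 0.01, 12 in one fit of all 10 samples and 0 to 19 with one library left out. Over all genes 633 were called, against 1236, 130, 2674, 3 and 2666 in the same settings and 1 to 4406 with one library left out. In TAM, one fit of all 10 samples called 9 other complement genes (17 in the fit of TAM alone) and 4837 of all genes (7257). For the interaction, an adjusted p under 0.01 left 8 other complement genes (of 13) and 2220 of all genes (of 4131), and leaving out one library gave 4 to 8 of the 9 genes, up to 23 other complement genes and 2446 to 7026 of all genes. The cause of these shifts was not tested.

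Some changes that were not called turned their direction. C5ar1 in MDSC was at 0.03234 with total-count scaling and 0.009867 with a stricter filter, and C3 in the interaction at 0.008148 with DESeq2's size factors, 0.008126 with DESeq2, 0.007104 without a filter and 0.0198 with limma voom. With one library left out, MDSC values ran from -0.01333 to 0.8931 for C1qa, -0.6774 to 0.07711 for C1qb, -0.2969 to 0.521 for C1qc, -0.1394 to 0.08921 for C5ar1 and -0.008987 to 0.7487 for Cfb, and interaction values from -0.1637 to 0.7818 for C1qa, -0.3234 to 0.3679 for C3 and -0.5036 to 0.2151 for Cfb.

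Between genotypes, same-numbered libraries did not deviate together in TAM (r of -0.0827, 0.0644 and 0.0343). The MDSC pairs gave 0.174, a single value repeated with 2 libraries a group, which does not settle a pairing, and no label ties the numbers to a shared mouse, batch or day. Between the cell types, same-numbered MDSC and TAM libraries gave 0.0191 and 0.0259 in Shp2f/f and 0.0257 and -0.146 in Shp2f/fLysMcre mice. Which of these libraries share animals stays unknown. The alternatives for other complement genes were added after seeing the data. Precision in MDSC is limited by 2 libraries per genotype.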
